A study of Saccharomyces cerevisiae with 42 samples.

Results

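The response that yeast cells lose or gain when the kinase Hog1 is held at membranes was taken as a difference of differences. For each gene, the log2 change over 60 min of 1 M sorbitol in the strain HOG1-CCAAX was subtracted from the same change in the strain HOG1-GFP, within each of 3 biological replicates. These 2 strains account for 28 of the 42 arrays of the series. All differences are HOG1-GFP minus HOG1-CCAAX, so a positive difference means a lower response in HOG1-CCAAX, and a negative difference means a higher one.

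Saccharomyces cerevisiae at 25 °C was sampled before (0 min) and 60 min into a shock with 1 M sorbitol, and total RNA was read on 2-colour arrays against a common reference pool. HOG1-CCAAX cells carry Hog1 with the prenylation signal that its name gives, which anchors proteins in membranes. The hog1del cells lack HOG1 and are set beside the other strains here. HOG1-GFP cells carry Hog1 with a GFP tag, and a GFP probe also gave signal in HOG1-CCAAX, as described below. Each strain had 7 arrays at each time, 3 technical arrays for replicate 1 and 2 for each of replicates 2 and 3. The labels call the replicates biological and do not say what samples of 1 number share or how the cultures were grown. P-values thus measure the spread between these samples, and no culture kept for 60 min without sorbitol was analysed here, so effects of time and of sorbitol cannot be told apart.

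The high-osmolarity glycerol (HOG) pathway ends in the MAP kinase Hog1. When the medium becomes hyperosmotic, the sensor branches Sln1 and Sho1 activate the kinase Pbs2, which phosphorylates Hog1. Active Hog1 gathers in the nucleus, where it acts on transcription through factors such as Hot1, Sko1 and Msn2/Msn4, and it also has targets in the cytosol that raise internal glycerol.

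The HOG1 transcript (YLR113W) set hog1del apart from the strains that carry the gene, and it does not tell those strains from each other. Its log2 level in HOG1-CCAAX was −0.29, −0.34 and −0.15 at 0 min and 0.35, 0.60 and 0.06 at 60 min. In hog1del it was −3.03, −3.20 and −3.47 at 0 min and −3.97, −3.49 and −3.64 at 60 min. In HOG1-GFP it was −0.08, −0.06 and −0.10 at 0 min and 0.46, 0.21 and 0.34 at 60 min. The response of the HOG1 transcript differed by −0.18 ± 0.46 (SD, n = 3), which did not pass (adjusted p = 0.7444).

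A probe for the drug marker kanMX4, read in replicates 2 and 3 only, separated the strains in another way. At 0 min its log2 level was −5.90 and −4.83 in HOG1-CCAAX, −4.80 and −4.89 in hog1del, and 1.01 and 0.55 in HOG1-GFP. A GFP probe gave −0.15 and 0.05 in HOG1-CCAAX, −5.11 and −4.67 in hog1del, and 0.42 and 0.21 in HOG1-GFP. The GFP signal was thus far above hog1del in both other strains and not particular to HOG1-GFP. The marker and the anchor cannot be told apart in the comparison of HOG1-CCAAX with HOG1-GFP.

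Replicate 1 stood apart from the others. Across genes, which are not independent replicates, the responses of HOG1-CCAAX in replicate 1 correlated with those in replicates 2 and 3 at Pearson r = 0.76 and 0.74, against 0.96 between replicates 2 and 3. In HOG1-GFP the values were 0.75 and 0.75, against 0.98. For the difference of response they were 0.29 and 0.30, against 0.53.

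Most of the shock response did not pass as different between the strains. Of 5462 genes with a value in every sample of both strains, 146 passed the test of the difference at an adjusted p under 0.05 (2.67% of the genes tested), by limma's moderated test, with 68 positive differences (1.24%) and 78 negative ones (1.43%). The sign was the same in 3 of 3 replicates for each of these 146 genes, and the mean difference reached 1 on the log2 scale, which is 2-fold, for 89 of them (42 positive, 47 negative). The median over all genes was −0.01. Within a strain, 2475 genes changed over 60 min in HOG1-CCAAX (45.3%, with 23.5% rising and 21.8% falling), 2436 of 5443 in hog1del (44.8%), and 2450 in HOG1-GFP (44.9%, with 22.6% rising and 22.3% falling). Of the 546 genes that rose at least 2-fold in HOG1-GFP, 505 also rose in HOG1-CCAAX, and 40 had a positive and 19 a negative called difference. Of the 547 that fell at least 2-fold in HOG1-GFP, 521 also fell in HOG1-CCAAX, and 4 had a positive and 15 a negative called difference.

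The count of 146 depends on single replicates. Replicates 2 and 3 alone gave 411, replicates 1 and 3 gave 55, and replicates 1 and 2 gave 4, which were STL1, HXT1, THI4 and YBR116C. When the pairing of the replicates was left out, in a fit of all 3 strains, 18 of 5443 genes passed. The spread of hog1del enters that fit too, and with the pairing kept it gave 184. Results without the pairing, here and below, are from this 3-strain fit. With technical array 1 of replicate 1 left out, in levels averaged here from the array values, 50 passed. The 146 genes kept the sign of their difference in each of these fits, 1 of them being unmeasured in the last. For the fits on 2 replicates and on 3 strains this had to be so, because each gene had the same sign in all replicates.

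**Figure D1:**
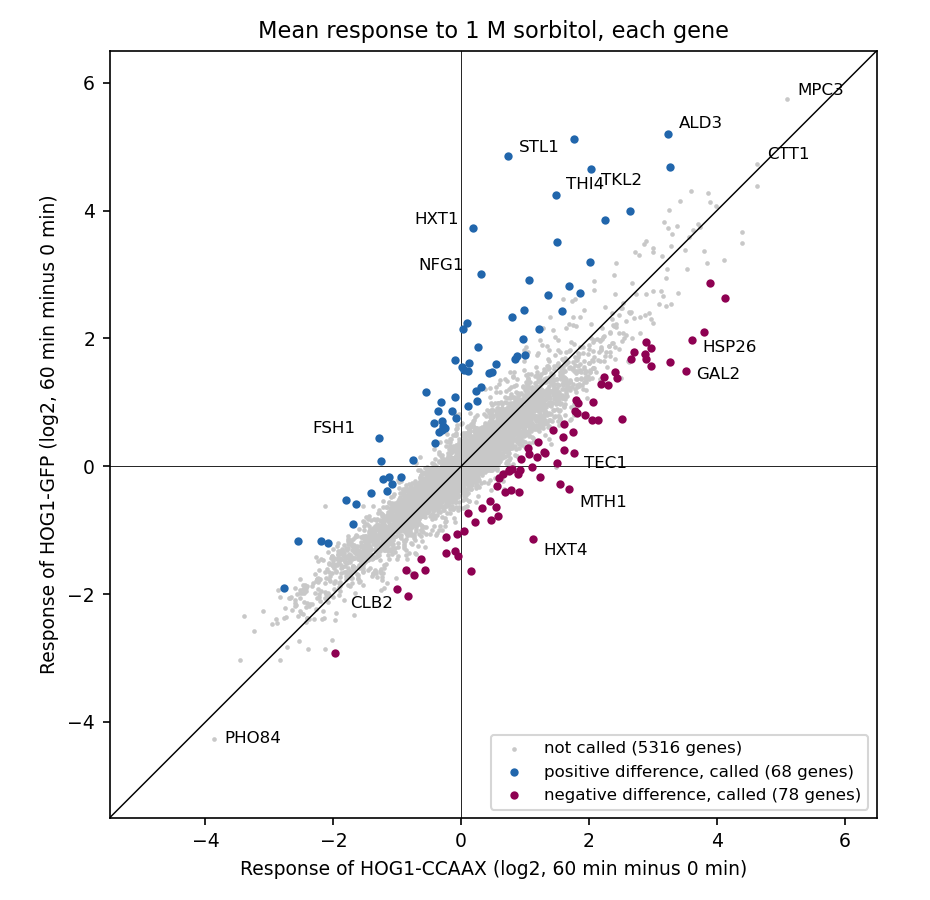
Mean log2 response of each of 5462 genes in HOG1-CCAAX (x axis) and HOG1-GFP (y axis), with the 68 genes of called positive difference in blue, the 78 of called negative difference in purple, all others in grey, and the line of equal response. Most points follow the line, and STL1 and HXT1 lie farthest above it.

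The positive and negative differences arose in several ways. Among the 68 genes of positive difference, 22 rose in both strains, 26 rose in HOG1-GFP and did not pass in HOG1-CCAAX, 8 fell in HOG1-CCAAX and did not pass in HOG1-GFP, 7 fell in both, and 5 passed in neither. Their median response was 0.10 in HOG1-CCAAX, −0.05 in hog1del and 1.46 in HOG1-GFP. Among the 78 of negative difference, 27 rose in both strains, 26 rose in HOG1-CCAAX and did not pass in HOG1-GFP, 15 fell in HOG1-GFP and did not pass in HOG1-CCAAX, 5 fell in both, 2 rose in HOG1-CCAAX and fell in HOG1-GFP, and 3 passed in neither. Here the median response was 1.21 in HOG1-CCAAX, 1.17 in hog1del and 0.13 in HOG1-GFP. These medians describe genes chosen by the difference and test nothing. Without replicate 1 the count of changed genes was 3760 in HOG1-CCAAX and 4159 in HOG1-GFP. It was 1302 and 1473 without replicate 2, and 1064 and 1242 without replicate 3.

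The strains differed little before the shock. At 0 min, 6 genes (0.11%) differed in level between HOG1-GFP and HOG1-CCAAX, and none of the 146 was among them, while 435 of all genes had an unadjusted p under 0.05. Leaving out replicate 1 gave 18, leaving out replicate 2 gave 35, and leaving out replicate 3 gave 0, where limma found that 205 genes had an unadjusted p under 0.05. At 60 min 412 genes differed in level (7.54%), 175 with a positive (3.2%) and 237 with a negative (4.34%) level difference. The split turned to 184 and 166 when each column was centred on its median, and the total was 1167 without replicate 1 and 140 without replicate 3. Of the 146 genes, 142 also differed in level at 60 min with the same sign, and for all 146 the level difference was larger at 60 min than at 0 min. The difference of response is the level difference at 60 min minus that at 0 min. Genes chosen by it thus tend to differ more at 60 min, so these counts, and the absence of the 146 at 0 min, test nothing further.

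STL1 (YDR536W), which encodes the glycerol and proton symporter of the plasma membrane, had the largest difference. Its log2 level at 0 min was −2.73, −4.20 and −3.42 in HOG1-CCAAX and −2.97, −3.19 and −3.63 in HOG1-GFP. At 60 min it was −2.25, −3.13 and −2.76 in HOG1-CCAAX and 2.41, 1.21 and 1.13 in HOG1-GFP. The strains overlapped before the shock and were far apart after it.

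HXT1 (YHR094C), a low-affinity glucose transporter gene, showed the same separation at 60 min and a smaller one at 0 min. Its level at 0 min was −1.54, −3.36 and −3.07 in HOG1-CCAAX and −1.25, −1.89 and −1.67 in HOG1-GFP, a level difference of 1.05 ± 0.66 that did not pass (adjusted p = 0.1702, but 0.0102 without replicate 1 and 0.0198 without replicate 2). At 60 min the level was −0.94, −3.37 and −3.10 in HOG1-CCAAX and 2.18, 2.00 and 2.19 in HOG1-GFP. In HOG1-CCAAX the values at both times lay close together in each replicate.

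**Figure D2:**
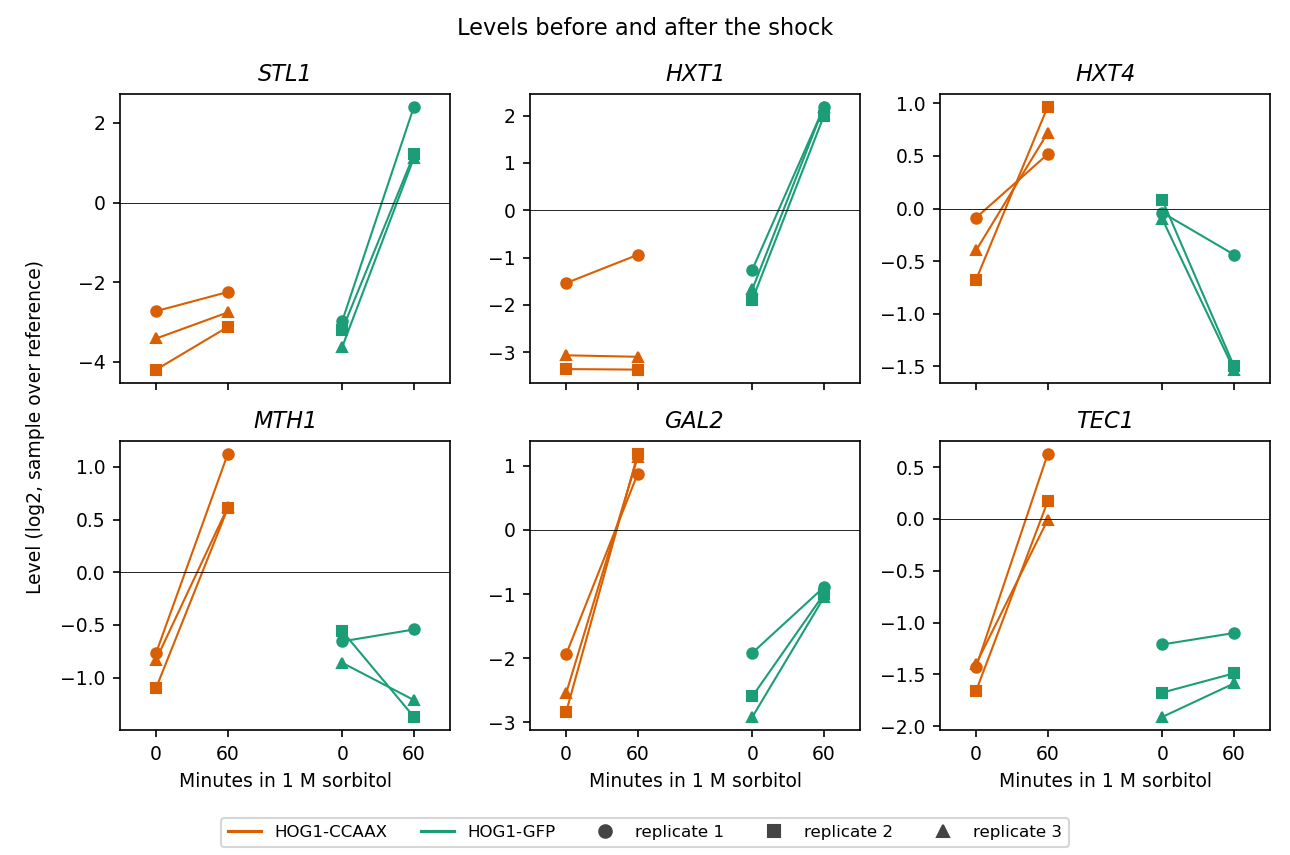
Log2 level, sample over reference, of 6 genes at 0 and 60 min in HOG1-CCAAX (left of each panel, orange) and HOG1-GFP (right, green), with 1 line per replicate. STL1 and HXT1 climbed steeply in HOG1-GFP, while HXT4, MTH1, GAL2 and TEC1 ended higher in HOG1-CCAAX. The vertical scale differs between panels.

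The response of STL1 was 0.48, 1.07 and 0.66 in HOG1-CCAAX, −1.25, 0.07 and −0.17 in hog1del, and 5.38, 4.41 and 4.75 in HOG1-GFP. The difference between HOG1-GFP and HOG1-CCAAX was 4.11 ± 0.78, or 17.3-fold (95% interval 3.54 to 4.68, adjusted p = 1.4e-05). For HXT1 the response was 0.60, −0.01 and −0.03 in HOG1-CCAAX, 0.92, −0.02 and −0.28 in hog1del, and 3.44, 3.89 and 3.86 in HOG1-GFP. Its difference was 3.54 ± 0.61, or 11.7-fold (95% interval 3.04 to 4.05, adjusted p = 1.4e-05). In both genes HOG1-GFP did not overlap HOG1-CCAAX or hog1del, and the difference passed under every alternative, with adjusted p up to 0.0276.

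Some enzyme genes of sugar and aldehyde metabolism also had a positive difference. They were 2 of 11 measured pentose phosphate genes (TKL2 and NQM1, list median 0.01) and 1 of 7 aldehyde dehydrogenase genes (ALD3, list median 0.33). Over all genes tested, 1.24% had a positive called difference. TKL2 (YBR117C), a transketolase of the pentose phosphate pathway, responded by 0.53, 3.16 and 2.40 in HOG1-CCAAX, −0.64, 0.53 and 0.37 in hog1del, and 3.32, 5.04 and 5.60 in HOG1-GFP. Its difference was 2.62 ± 0.68 (6.17-fold, adjusted p = 3.2e-04). The lowest HOG1-GFP value was above the highest HOG1-CCAAX value, by a small margin because replicate 1 was low in both strains.

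ALD3 (YMR169C), a cytosolic aldehyde dehydrogenase, responded by 2.18, 4.20 and 3.34 in HOG1-CCAAX, 1.07, 1.64 and 1.40 in hog1del, and 4.28, 5.37 and 5.95 in HOG1-GFP (difference 1.96 ± 0.73, adjusted p = 0.0022). NQM1 (YGR043C), a transaldolase, responded by 3.10, 3.88 and 2.83 in HOG1-CCAAX, 1.78, 1.94 and 1.86 in hog1del, and 5.34, 4.17 and 4.52 in HOG1-GFP (difference 1.41 ± 1.00, adjusted p = 0.0343). In both genes HOG1-CCAAX lay between the other strains in every replicate. DAK1 (YML070W), the dihydroxyacetone kinase of glycerol breakdown, responded by 0.71, 1.76 and 1.59 in HOG1-CCAAX, −0.17, 0.43 and 0.52 in hog1del, and 2.06, 2.82 and 3.14 in HOG1-GFP (difference 1.32 ± 0.24, adjusted p = 0.0033).

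Reductase genes moved in either direction. ARI1 (YGL157W), an aldehyde reductase, responded by 0.11, 0.42 and 0.28 in HOG1-CCAAX, 0.04, 0.15 and 0.34 in hog1del, and 1.71, 1.91 and 1.96 in HOG1-GFP (difference 1.59 ± 0.09, adjusted p = 9.4e-04). GRE3 (YHR104W), an aldose reductase, responded by −0.16, 1.90 and 1.21 in HOG1-CCAAX, −1.16, 0.30 and −0.08 in hog1del, and 2.09, 2.61 and 2.63 in HOG1-GFP (difference 1.46 ± 0.77, adjusted p = 0.0125). ARI1 hardly moved in HOG1-CCAAX, whereas GRE3 spread widely there. With YML131W (1.36), 3 of 13 measured genes for aldo-keto and related reductases had a positive called difference, and OYE3 (−1.13) and YJR096W (−0.91) had a negative one. The list's median was −0.09, against −0.01 over all genes, of which 1.24% had a positive and 1.43% a negative called difference.

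Among the 9 genes STL1, HXT1, TKL2, NQM1, ALD3, DAK1, GRE3, YML131W and ARI1, all 9 passed without replicate 1 and without replicate 2. Without replicate 3 only STL1 and HXT1 passed, with adjusted p between 0.0276 and 0.4791 over the 9. Without the pairing of replicates STL1, HXT1 and ARI1 passed (0.0032 to 0.4662).

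**Figure D3:**
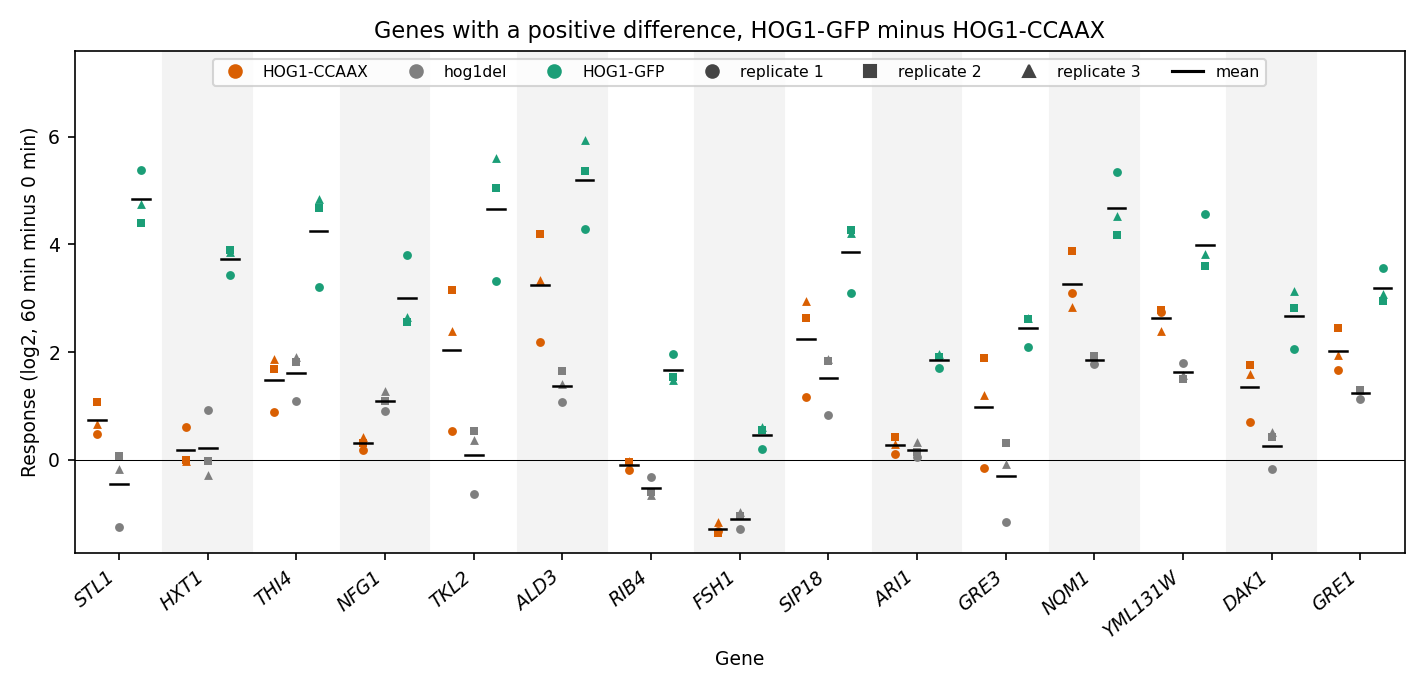
Log2 response (60 min minus 0 min) of 15 genes of called positive difference, in HOG1-CCAAX (orange), hog1del (grey) and HOG1-GFP (green), with 1 point per replicate and a bar at the mean. The mean of HOG1-GFP is above that of both other strains for each gene, and HOG1-CCAAX is near hog1del for HXT1, THI4, FSH1 and ARI1.

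Outside central metabolism, THI4 (YGR144W), which makes the thiazole ring of thiamine, had a response of 0.89, 1.68 and 1.87 in HOG1-CCAAX, 1.10, 1.81 and 1.90 in hog1del, and 3.20, 4.67 and 4.85 in HOG1-GFP. The difference was 2.76 ± 0.39 (6.78-fold, adjusted p = 3.1e-05). It was the only called gene of 20 measured thiamine genes, against 2.67% called over all genes. NFG1 (YLR042C), a negative regulator of filamentous growth, responded by 0.19, 0.31 and 0.42 in HOG1-CCAAX, 0.90, 1.08 and 1.27 in hog1del, and 3.80, 2.56 and 2.64 in HOG1-GFP (difference 2.70 ± 0.80, adjusted p = 4.0e-04). In NFG1 the values of HOG1-CCAAX were below those of hog1del in each replicate.

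The hydrophilin genes SIP18 and GRE1 encode small hydrophilic proteins made under water stress. SIP18 (YMR175W) responded by 1.16, 2.63 and 2.95 in HOG1-CCAAX, 0.83, 1.83 and 1.87 in hog1del, and 3.10, 4.27 and 4.21 in HOG1-GFP (difference 1.61 ± 0.34, adjusted p = 0.0016). GRE1 (YPL223C) responded by 1.67, 2.44 and 1.95 in HOG1-CCAAX, 1.12, 1.29 and 1.29 in hog1del, and 3.56, 2.95 and 3.07 in HOG1-GFP (difference 1.17 ± 0.69, adjusted p = 0.0303). They were the 2 called genes of 12 measured hydrophilins and small stress proteins (2.67% called over all genes), whose median difference was 0.31.

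Some genes of positive difference neighbour each other. RIB4 (YOL143C), the lumazine synthase of riboflavin synthesis, lies between NOP8 (YOL144W), a nucleolar factor, and RRP40 (YOL142W), a subunit of the exosome. RIB4 responded by −0.20, −0.04 and −0.03 in HOG1-CCAAX, −0.32, −0.61 and −0.65 in hog1del, and 1.96, 1.53 and 1.49 in HOG1-GFP (difference 1.75 ± 0.36, adjusted p = 9.7e-04). Its neighbours differed by 1.33 ± 0.55 (NOP8, adjusted p = 0.0089) and 1.33 ± 0.53 (RRP40, adjusted p = 0.0085).

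FIT1 (YDR534C), a cell wall mannoprotein of iron uptake next to STL1, had a difference of 1.45 (adjusted p = 0.0048). CEM1 (YER061C), a mitochondrial fatty acid synthase enzyme, differed by 2.15 (adjusted p = 0.0024), while its neighbour GPP2 lacks a value in replicate 1. CEM1 responded by 2.21, −1.13 and −0.79 in HOG1-CCAAX and 5.36, 0.67 and 0.71 in HOG1-GFP, so replicate 1 was high in both strains. The adjacent genes PRM10 (YJL108C), a pheromone-regulated membrane protein, and YJL107C differed by 2.00 (adjusted p = 0.0067) and 1.85 (adjusted p = 0.0039). The open reading frame YBR116C, numbered next to TKL2 and not listed by RefSeq, differed by 3.35 ± 0.45 (adjusted p = 1.4e-05). Whether probes of neighbouring genes read a shared transcript was not tested.

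FSH1 (YHR049W), a serine hydrolase, had mean responses of opposite sign in HOG1-CCAAX and HOG1-GFP. Its response was −1.32, −1.37 and −1.16 in HOG1-CCAAX, −1.28, −1.05 and −0.98 in hog1del, and 0.20, 0.54 and 0.61 in HOG1-GFP (difference 1.73 ± 0.20, adjusted p = 6.1e-04). PUF3 (YLL013C), which binds messenger RNAs of mitochondrial proteins, responded by −0.46, −0.90 and −0.31 in HOG1-CCAAX and 0.16, 1.69 and 1.63 in HOG1-GFP (difference 1.71 ± 1.00, adjusted p = 0.0125, or 0.0695 without replicate 2).

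Of the 15 genes THI4, NFG1, SIP18, GRE1, RIB4, NOP8, RRP40, CEM1, FSH1, MOR1, PRM10, YJL107C, YBR116C, PUF3 and FIT1, 15 passed without replicate 1, 14 without replicate 2 and 2 without replicate 3. Those 2 were THI4 and YBR116C, with adjusted p between 0.0276 and 0.3874 over the 15. Without the pairing THI4, NFG1, RIB4, RRP40, FSH1 and YBR116C passed (0.0054 to 0.8685).

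The genes of negative difference were led by HXT4, MTH1 and GAL2, genes of glucose uptake and glucose control. Next came the open reading frame YGR035C, with mean responses of 1.55 in HOG1-CCAAX and −0.28 in HOG1-GFP. Its difference passed, but not without replicate 2 (adjusted p = 0.0976) or without replicate 3 (0.4354). HXT4 (YHR092C), a glucose transporter gene, responded by 0.60, 1.64 and 1.12 in HOG1-CCAAX, 0.74, 1.06 and 1.32 in hog1del, and −0.40, −1.58 and −1.43 in HOG1-GFP. It rose in HOG1-CCAAX (adjusted p = 0.0147) and fell in HOG1-GFP (adjusted p = 0.0196), both lost without replicate 3 (0.0642 and 0.0647) and the first also without replicate 2 (0.0608). Between strains the difference was −2.26 ± 1.14 (4.78-fold, adjusted p = 0.0048). The transcript thus went up in one strain and down in the other in each of 3 replicates.

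GAL2 (YLR081W), the galactose permease, which also carries glucose, responded by 2.82, 4.03 and 3.69 in HOG1-CCAAX, 2.34, 3.38 and 3.45 in hog1del, and 1.03, 1.60 and 1.87 in HOG1-GFP (difference −2.02 ± 0.36, adjusted p = 4.0e-04). HXT6 (YDR343C), a high-affinity glucose transporter gene, responded by −0.24, 0.17 and −0.09 in HOG1-CCAAX, −0.95, −0.24 and −0.17 in hog1del, and −1.41, −1.41 and −1.39 in HOG1-GFP (difference −1.35 ± 0.21, adjusted p = 0.0028). In the transporter gene HXT3 (YDR345C) the difference was −1.11 ± 0.34 (adjusted p = 0.0112), and in HXT2 (YMR011W) it was −1.05 ± 0.17 (adjusted p = 0.0102). Of 10 measured hexose transporter genes, 1 thus had a positive called difference (HXT1, against 1.24% of all genes) and 5 a negative one (against 1.43%). The list median was −0.70, against −0.01 over all genes. Of the other members, HXT5 had a difference of 0.09 (adjusted p = 0.9162). HXT6 and HXT7 are nearly identical in sequence, and their probes may share signal.

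MTH1 (YDR277C), a corepressor that keeps HXT genes off when glucose is low, responded by 1.89, 1.70 and 1.45 in HOG1-CCAAX, 1.07, 1.24 and 1.47 in hog1del, and 0.11, −0.81 and −0.35 in HOG1-GFP. The difference was −2.03 ± 0.42 (4.09-fold, adjusted p = 4.4e-04), and HOG1-GFP did not overlap either other strain. MIG1 (YGL035C), the repressor of glucose-repressed genes, responded by 1.13, 1.46 and 1.00 in HOG1-CCAAX and 0.40, 0.30 and 0.45 in HOG1-GFP (difference −0.81 ± 0.31, adjusted p = 0.0483). These were the 2 called genes of 18 in the glucose sensing and repression list (2.67% over all genes), both negative, with a list median of −0.10. NRG2 (YBR066C), another repressor, responded by 2.33, 2.79 and 2.44 in HOG1-CCAAX, 2.59, 3.29 and 2.94 in hog1del, and 1.31, 0.72 and 0.18 in HOG1-GFP (difference −1.78 ± 0.67, adjusted p = 0.0028). EMI2 (YDR516C), related to hexokinases, differed by −1.35 ± 0.94 (adjusted p = 0.0344).

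A few genes of respiration had a negative called difference. HAP4 (YKL109W), the activating subunit of the regulator of respiratory genes, responded by 0.28, 0.52 and −0.34 in HOG1-CCAAX, 0.15, 0.25 and −0.09 in hog1del, and −0.86, −2.03 and −2.04 in HOG1-GFP (difference −1.80 ± 0.71, adjusted p = 0.0032). CYC7 (YEL039C), a cytochrome c isoform, responded by 3.70, 4.53 and 4.13 in HOG1-CCAAX, 3.03, 3.67 and 3.68 in hog1del, and 2.63, 3.04 and 2.24 in HOG1-GFP (difference −1.49 ± 0.41, adjusted p = 0.0029). HAP4 thus fell in HOG1-GFP and hardly moved in HOG1-CCAAX, while CYC7 rose in both strains.

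With NDI1 (−1.11), an NADH dehydrogenase of mitochondria, these were the 3 called genes of 31 for the respiratory chain and ATP synthase, whose median was −0.20. Of 27 TCA and glyoxylate cycle genes, 2 had a negative called difference, the citrate synthase gene CIT2 (−0.98) and the isocitrate dehydrogenase gene IDP2 (−0.94), and the median was −0.32. Of all genes tested, 1.43% had a negative called difference. RGI2 (YIL057C), a gene of respiratory growth, responded by 2.68, 4.43 and 4.29 in HOG1-CCAAX, 1.73, 4.13 and 3.99 in hog1del, and 1.48, 2.43 and 2.38 in HOG1-GFP (difference −1.70 ± 0.44, adjusted p = 0.0016). CSR2 (YPR030W), an arrestin-like adaptor of transporter turnover, responded by 2.17, 3.84 and 3.80 in HOG1-CCAAX, 0.93, 2.19 and 2.41 in hog1del, and 0.92, 1.74 and 2.23 in HOG1-GFP (difference −1.64 ± 0.43, adjusted p = 0.0020). POT1 (YIL160C), the thiolase of fatty acid oxidation, differed by −1.11 ± 0.29 (adjusted p = 0.0102) and was the 1 called gene of 23 for peroxisomal fatty acid oxidation, whose median was −0.15.

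Of the 16 genes HXT4, GAL2, HXT6, HXT3, HXT2, MTH1, MIG1, EMI2, HAP4, NRG2, RGI2, CSR2, CYC7, CIT2, IDP2 and POT1, 16 passed without replicate 1 and 9 without replicate 2. None passed without replicate 3, where their adjusted p lay between 0.0739 and 0.3906. Without the pairing HXT4 and MTH1 passed (0.0112 to 0.5691).

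**Figure D4:**
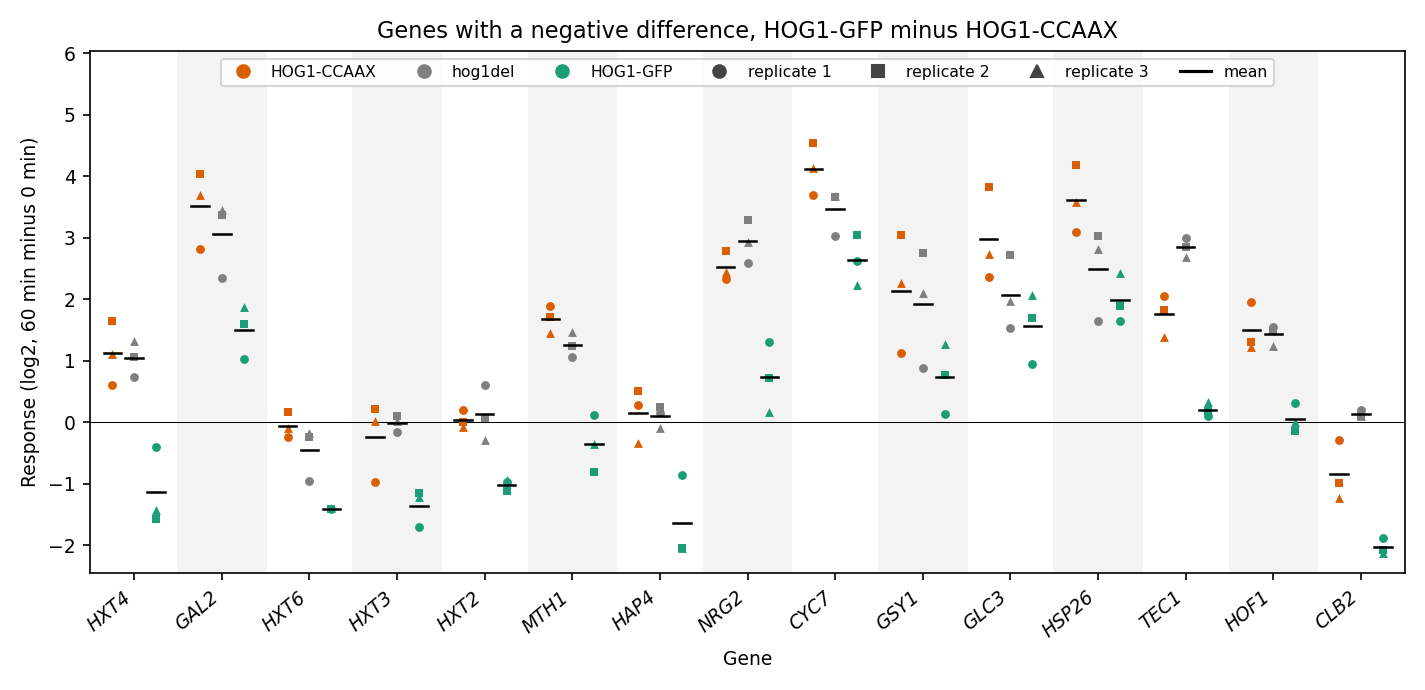
Log2 response (60 min minus 0 min) of 15 genes of called negative difference, in HOG1-CCAAX (orange), hog1del (grey) and HOG1-GFP (green), with 1 point per replicate and a bar at the mean. The mean of HOG1-GFP is below that of HOG1-CCAAX for each gene. For CLB2 and TEC1 every hog1del point is above those of both other strains.

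Glycogen genes responded more strongly in HOG1-CCAAX. Of 13 measured, 6 had a negative called difference (1.43% over all genes) and none a positive one, with a median of −0.80. GSY1 (YFR015C), a glycogen synthase, responded by 1.13, 3.04 and 2.26 in HOG1-CCAAX, 0.88, 2.75 and 2.11 in hog1del, and 0.14, 0.77 and 1.27 in HOG1-GFP (difference −1.41 ± 0.74, adjusted p = 0.0128). GLC3 (YEL011W), the branching enzyme, responded by 2.36, 3.82 and 2.74 in HOG1-CCAAX, 1.53, 2.71 and 1.98 in hog1del, and 0.95, 1.69 and 2.07 in HOG1-GFP (difference −1.41 ± 0.73, adjusted p = 0.0127). In both genes replicate 2 of HOG1-CCAAX was the highest value. The glycogen phosphorylase gene GPH1 (−1.06), the glycogenin gene GLG1 (−1.01), the phosphatase subunit gene GAC1 (−0.97) and the glucoamylase gene SGA1 (−0.95) were the other 4. The trehalose cycle and its UDP-glucose supply, the other storage sugar, had no called gene among 10 (3 at an unadjusted p under 0.05) and a median of −0.17.

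HSP26 (YBR072W), a small heat shock protein, responded by 3.09, 4.18 and 3.58 in HOG1-CCAAX, 1.65, 3.02 and 2.81 in hog1del, and 1.64, 1.88 and 2.42 in HOG1-GFP (difference −1.63 ± 0.59, adjusted p = 0.0033). It rose in each strain. Of 24 heat shock proteins and chaperones, HSP26 and HSP32 (0.75) were called, against 2.67% of all genes, and the list median was −0.09. HSP32 has near-identical paralogues that its probe may also read.

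Of 21 measured effectors of Hog1, 2 had a negative called difference, against 1.43% of all genes. MSN4 (YKL062W), a transcription factor of the general stress response, responded by 0.94, 0.89 and 0.94 in HOG1-CCAAX, 0.43, 0.65 and 0.89 in hog1del, and −0.37, 0.13 and 0.05 in HOG1-GFP (difference −0.99 ± 0.29, adjusted p = 0.0185). RCK1 (YGL158W), a kinase related to the Hog1 target Rck2, responded by 1.86, 3.23 and 3.54 in HOG1-CCAAX, 0.75, 2.06 and 2.72 in hog1del, and 0.82, 1.91 and 2.53 in HOG1-GFP (difference −1.12 ± 0.17, adjusted p = 0.0073). For RCK1 the values of hog1del and HOG1-GFP interleave, below HOG1-CCAAX within each replicate. None of the 17 sensors and kinases of the HOG pathway was called (1 at an unadjusted p under 0.05), and their median was 0.00. Of 7 phosphatases, 1 had a positive called difference, against 1.24% of all genes. It was PTP3, which dephosphorylates Hog1, at 0.83 ± 0.25 (adjusted p = 0.0404, but 0.0976 without replicate 2 and 0.4506 without replicate 3).

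The 6 genes GSY1, GLC3, GPH1, HSP26, MSN4 and RCK1 passed without replicate 1. HSP26 alone passed without replicate 2, and none of the 6 passed without replicate 3 (0.0935 to 0.4121) or without the pairing (0.0805 to 0.8434). Called glycogen genes numbered 9 without replicate 1 and 0 without either of the others, while the list median stayed between −0.91 and −0.61 in these 3 fits.

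Genes of mating and filamentous growth were mixed. TEC1 (YBR083W), which encodes a transcription factor that drives filamentous growth, responded by 2.06, 1.83 and 1.39 in HOG1-CCAAX, 3.00, 2.85 and 2.68 in hog1del, and 0.11, 0.19 and 0.32 in HOG1-GFP (difference −1.55 ± 0.45, adjusted p = 0.0027). The 3 strains did not overlap, and HOG1-CCAAX lay between the others. PRM4 (YPL156C), a pheromone-regulated gene, responded by 1.15, 1.53 and 1.21 in HOG1-CCAAX, 2.08, 2.18 and 1.87 in hog1del, and 0.54, 0.15 and −0.04 in HOG1-GFP (difference −1.08 ± 0.41, adjusted p = 0.0172). FUS1 (YCL027W), needed for the fusion of mating cells and a usual readout of mating signalling, responded by −0.17, 1.56 and 1.91 in HOG1-CCAAX, 0.97, 4.92 and 4.34 in hog1del, and 0.63, 1.61 and 2.08 in HOG1-GFP. Its difference of 0.34 ± 0.41 did not pass (95% interval −0.09 to 0.78, adjusted p = 0.4480). Of 39 measured mating and pheromone genes, 2 had a positive (PRM10 and PRM7) and 2 a negative called difference (TEC1 and PRM4), with a median of −0.21. Over all genes the called shares were 1.24% positive and 1.43% negative.

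Among 33 measured genes of G2 and M phase, 7 had a negative called difference (1.43% over all genes) and none a positive one. Their median was −0.42. HOF1 (YMR032W), a bud neck protein of cytokinesis, responded by 1.95, 1.30 and 1.23 in HOG1-CCAAX, 1.55, 1.50 and 1.25 in hog1del, and 0.31, −0.14 and 0.00 in HOG1-GFP (difference −1.44 ± 0.21, adjusted p = 0.0022). CLB2 (YPR119W), a mitotic cyclin, responded by −0.29, −0.98 and −1.23 in HOG1-CCAAX, 0.21, 0.10 and 0.11 in hog1del, and −1.88, −2.08 and −2.12 in HOG1-GFP (difference −1.20 ± 0.37, adjusted p = 0.0085). CLB2 fell in HOG1-CCAAX (adjusted p = 0.0316, but 0.1165 without replicate 2 and 0.1940 without replicate 3) and fell further in HOG1-GFP. The cyclin gene CLB1 (−0.97), SPO12 of mitotic exit (−0.87), the transcription factor gene SWI5 (−0.83) and DSE1 of daughter cells (−0.78) were also called. The G1 cyclins and Start genes had no called gene among 13 (3 at an unadjusted p under 0.05), with a median of −0.22.

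Of TEC1, PRM4, HOF1, CLB2 and CLB1, 4 passed without replicate 1 (not CLB1), 3 without replicate 2 (TEC1, HOF1 and CLB2) and none without replicate 3 (0.0803 to 0.3837). Without the pairing TEC1 and HOF1 passed (0.0154 to 0.2053). Leaving out replicate 1 gave 10 negative and 1 positive called genes of G2 and M phase, leaving out replicate 2 gave 2 negative ones, and leaving out replicate 3 gave 0.

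The list of 45 measured osmostress genes that the literature ties to Hog1 held 12 positive and 4 negative called differences (1.24% and 1.43% over all genes). Besides the genes described, it added PTP3 on the positive side and EMI2, GPH1 and YJR096W on the negative side. The median was 0.24, and 28 members had a positive mean difference. The list's median was 0.75 in replicate 1, −0.48 in replicate 2 and 0.48 in replicate 3, and −0.02 without replicate 1, so its median had no common sign in the replicates. Without replicate 3 the list held 2 called genes, STL1 and HXT1. In HOG1-CCAAX 40 of the 45 rose (23.5% over all genes), and in HOG1-GFP 40 rose (22.6% over all genes). CTT1 (YGR088W), the cytosolic catalase gene, responded by 4.58, 5.36 and 3.94 in HOG1-CCAAX, 3.44, 4.31 and 3.55 in hog1del, and 5.21, 4.50 and 4.49 in HOG1-GFP, with a difference of 0.11 ± 0.83 (95% interval −0.48 to 0.70, adjusted p = 0.8961). Its mean turned to −0.15 and −0.11 when replicate 1 or replicate 3 was left out. ENA1 (YDR040C), a sodium pump gene, differed by 0.40 ± 0.19 (95% interval 0.01 to 0.79, adjusted p = 0.3138).

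A list of 30 genes deposited by the authors, who picked it for induction in HOG1-GFP and not in hog1del, overlaps these genes by its choice, so its HOG1-GFP responses are no independent evidence. Of its 29 members with a value in every sample, 18 had a positive called difference (1.24% over all genes) and none a negative one (1.43%). In HOG1-CCAAX 21 of the 29 rose, against 23.5% of all genes. Responses there were −0.09 to 3.28, and 20 of the 29, called or not, were at least 2-fold. The medians in replicates 1, 2 and 3 were 0.86, 1.90 and 1.59 in HOG1-CCAAX, 0.59, 0.65 and 0.92 in hog1del, and 2.74, 2.82 and 3.07 in HOG1-GFP. At the far end from STL1 and HXT1, PNS1 (YOR161C) and YNL194C differed by 0.15 (adjusted p = 0.8596) and 0.16 (adjusted p = 0.8478).

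Genes of ribosome production mostly had a positive mean difference. Of 144 ribosome biogenesis factors, 4 were called, a share near the 2.67% over all genes, and all 4 were positive (TSR1, NOP8, NOC2 and KRI1). Of the 144, 120 had a positive mean, and the median was 0.34. The median response was −1.77 in HOG1-CCAAX, −1.22 in hog1del and −1.35 in HOG1-GFP. TSR1 (YDL060W), a factor for the small subunit, responded by −1.40, −3.20 and −3.06 in HOG1-CCAAX and −1.27, −1.10 and −1.16 in HOG1-GFP (difference 1.38 ± 1.09, adjusted p = 0.0483). Nearly all of its difference came from replicates 2 and 3. Of 107 cytosolic ribosomal protein genes none was called (22 at an unadjusted p under 0.05), with 100 positive means and a median of 0.29. The median over biogenesis factors was −0.07 in replicate 1, 0.59 in replicate 2 and 0.41 in replicate 3, and that over ribosomal proteins was −0.09, 0.71 and 0.27 in the same order. From replicates 2 and 3 alone, 43 biogenesis factors and 18 ribosomal protein genes were called, all positive. That fit called 411 of all 5462 genes, 182 of them positive. No biogenesis factor passed without replicate 3.

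**Figure D5:**
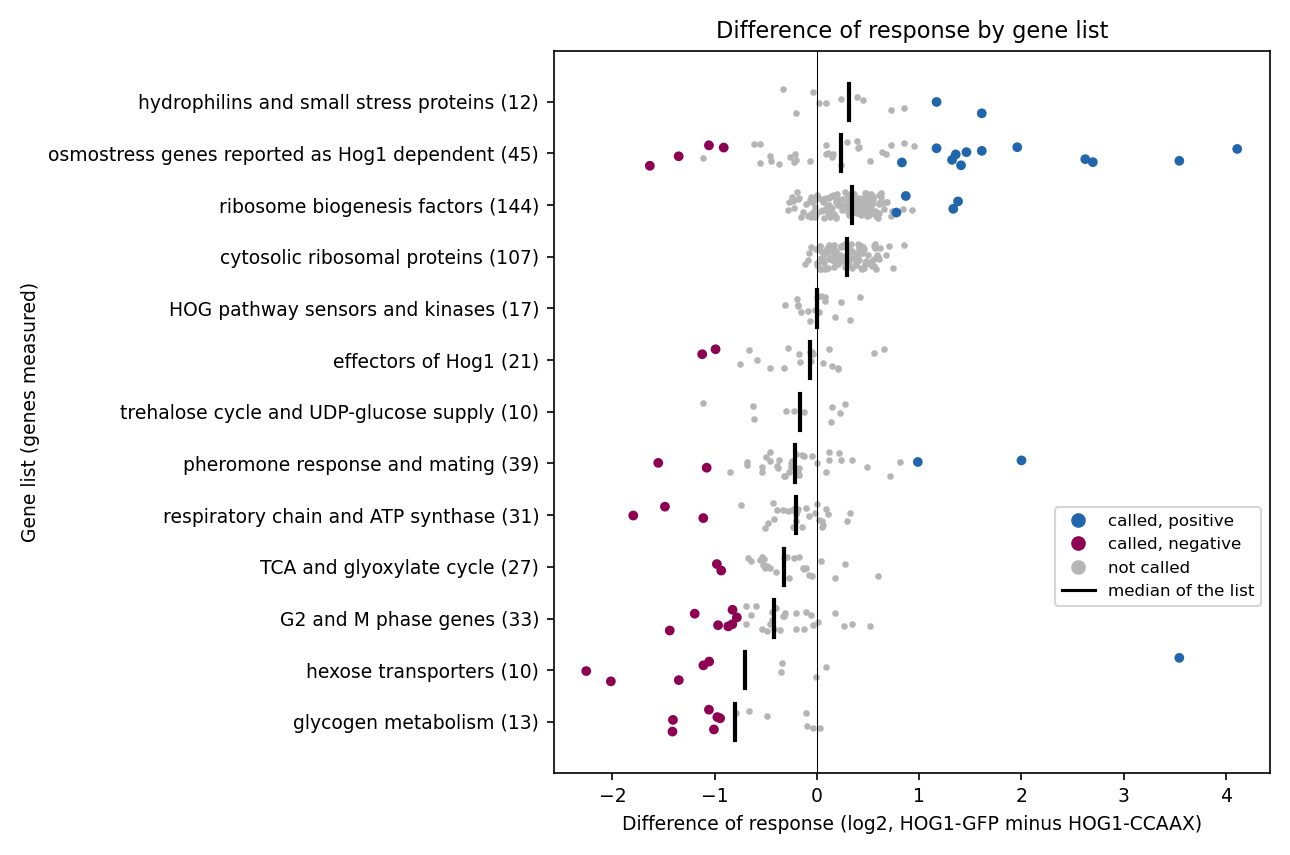
Difference of response (log2, HOG1-GFP minus HOG1-CCAAX) of each measured gene in 13 lists, with called genes in blue (positive) and purple (negative), other genes in grey, and a bar at each list's median. The medians of the glycogen (−0.80) and hexose transporter (−0.70) lists lie farthest from 0, and HXT1 stands alone at 3.54 among the transporters.

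The remaining lists held few called genes, as did all genes tested (2.67%), of which 843 of 5462 had an unadjusted p under 0.05. Of 44 lists in all, 16 had none by limma, with 59 of their 383 measured members at an unadjusted p under 0.05. Besides those given above, they were the a-specific and alpha-specific mating type genes, the phosphate regulon, ergosterol and purine synthesis, ion transporters, pyruvate carriers, the proteasome, autophagy, mitochondrial ribosomal proteins, strain construction markers and glycerol synthesis, which had 1 measured gene. Lists with 1 or 2 called genes included glycerol transport, with STL1 and with GUP2 (−0.84), a relative of a glycerol uptake regulator, and glycolysis and hexose kinases, with EMI2 and with PFK27 (0.84), which makes the glycolytic activator fructose-2,6-bisphosphate. Others were histones (HTA2, 0.77), pyrimidine synthesis (the uracil permease gene FUR4, 0.91), RNA polymerase I and III (the subunit gene RPC19, 0.88), redox defence (the peroxidase gene GPX1, −0.84) and the cell wall (TIR1, −1.36). In filamentous growth the regulator gene MSS11 (1.07) joined NFG1 on the positive side, with TEC1 on the negative side. GUP2 passed in no fit that left out 1 replicate (adjusted p 0.0571 to 0.366). PFK27 and HTA2 did not pass without replicate 2 or without replicate 3.

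Several genes of glycerol production lack a value in replicate 1. In a fit of 5981 genes with at least 2 differences, 171 passed (2.86%). GPP1 (YIL053W), a glycerol-3-phosphatase, responded in replicates 2 and 3 by −0.20 and −0.12 in HOG1-CCAAX, −0.85 and −0.66 in hog1del, and 1.34 and 1.63 in HOG1-GFP, with a mean difference of 1.65 (n = 2, adjusted p = 0.0026). Its paralogue GPP2 (YER062C) responded by 4.63 and 4.67 in HOG1-CCAAX, 4.37 and 4.02 in hog1del, and 4.92 and 5.42 in HOG1-GFP, with a difference of 0.52 that did not pass (n = 2, adjusted p = 0.3147). The phosphatase pair thus split, with GPP1 apart between the strains and GPP2 high in all 3.

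GPD1 (YDL022W), the glycerol-3-phosphate dehydrogenase of the same pathway, had a single HOG1-CCAAX response of 4.44 in replicate 2, against 3.74 and 3.00 in hog1del and 4.02 and 4.78 in HOG1-GFP in replicates 2 and 3, and was not tested. HSP12 (YFL014W), a membrane-stabilizing stress protein, responded by 6.14 and 5.16 in HOG1-CCAAX, 4.17 and 4.14 in hog1del, and 5.63 and 5.40 in HOG1-GFP (difference −0.13, n = 2, adjusted p = 0.8611). HXT7 (YDR342C) responded by 0.23 and 0.11 in HOG1-CCAAX, −0.21 and −0.10 in hog1del, and −1.48 and −1.32 in HOG1-GFP (difference −1.57, n = 2, adjusted p = 0.0036). RSB1 (YOR049C), a transporter of sphingoid bases, responded by 1.79 and 1.57 in HOG1-CCAAX, 1.29 and 1.37 in hog1del, and −0.25 and −0.34 in HOG1-GFP (difference −1.97, n = 2, adjusted p = 9.1e-04).

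HOG1-CCAAX was also set against hog1del. The difference of response HOG1-CCAAX minus hog1del was called for 177 of 5443 genes (3.25%), 92 of them positive and 85 negative. It was called for 28 without replicate 1, 330 without replicate 2 and 121 without replicate 3. HOG1-GFP minus hog1del was called for 610 genes (11.2%), and for 1767 without replicate 1, 91 without replicate 2 and 384 without replicate 3. Of the 68 genes of positive difference, 10 responded more and 6 less in HOG1-CCAAX than in hog1del, and 52 did not pass. TKL2 responded more in HOG1-CCAAX than in hog1del by 1.94 ± 0.73 (adjusted p = 0.0087), ALD3 by 1.87 ± 0.73 (adjusted p = 0.0089) and GRE3 by 1.29 ± 0.30 (adjusted p = 0.0087), and these 3 also passed without any 1 replicate. STL1 did so by 1.19 ± 0.48 (adjusted p = 0.0152, or 0.0679 without replicate 1) and NQM1 by 1.41 ± 0.49 (adjusted p = 0.0091, or 0.0679 without replicate 1). NFG1 responded less in HOG1-CCAAX, by −0.78 ± 0.07 (adjusted p = 0.0228, but 0.0759 without replicate 1 and 0.1330 without replicate 3). SIP18 differed by 0.74 ± 0.38 and did not pass (adjusted p = 0.0582). HXT1 differed by −0.02 ± 0.29 (95% interval −0.38 to 0.34), THI4 by −0.12 ± 0.08 (−0.44 to 0.19), ARI1 by 0.09 ± 0.16 (−0.23 to 0.42) and FSH1 by −0.18 ± 0.14 (−0.50 to 0.15), and none of these 4 passed (adjusted p = 0.9459, 0.6381, 0.7390 and 0.4920).

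Of the 78 genes of negative difference, 10 responded more and 5 less in HOG1-CCAAX than in hog1del, and 63 did not pass. Over all 5443 genes, 92 responded more and 85 less. HXT4 differed between HOG1-CCAAX and hog1del by 0.08 ± 0.43 (95% interval −0.34 to 0.50, adjusted p = 0.8347) and HAP4 by 0.05 ± 0.27 (−0.30 to 0.41, adjusted p = 0.8792). MTH1 differed by 0.42 ± 0.42 (0.01 to 0.83, adjusted p = 0.2100). TEC1 responded less in HOG1-CCAAX than in hog1del, by −1.08 ± 0.18 (adjusted p = 0.0089, or 0.0588 without replicate 1). CSR2 responded more, by 1.43 ± 0.21 (adjusted p = 0.0031, and passing without any 1 replicate), as did HSP26, by 1.12 ± 0.34 (adjusted p = 0.0107, or 0.0710 without replicate 1). These contrasts share the HOG1-CCAAX samples with the difference that chose the genes.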

How the data were processed

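Per the series' design text, the authors averaged technical arrays into 1 table of log2 levels per biological replicate. The deposited log2 values are of reference (Cy5) over sample (Cy3), and their sign was turned here. How arrays were scaled, background-corrected and filtered is not given in the sources used. Differences formed from the level tables equalled the deposited log2 changes within 5.0e-07. In each table the header of 1 column splits the time with a space, and that column was taken as 60 min.

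The 3 differences per gene were fitted with limma 3.58.1 (intercept only, eBayes, two-sided) in R 4.3.3, and adjusted after Benjamini and Hochberg over 5462 of 6278 open reading frames. Responses and levels were fitted likewise. The fit was also run on simulated data, drawn independently for each gene. Those data hold no replicate that stands apart across genes, as replicate 1 does here, so that run cannot check the test under this structure. The strains were paired by replicate number. Deviations from strain means correlated at 0.72, 0.44 and 0.45 for equal numbers, but at 0.61 between replicates 2 and 3 across numbers. These values set replicate 1 apart and do not show that replicates 2 and 3 are paired by number. Array number limits the precision.

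The members, the 44 lists and the rule that picks named genes were all chosen with earlier results of these data known. The rule names HOG1, up to 15 genes each way that passed with a mean of at least 1 and a constant sign, the 3 largest differences of each list and a fixed set of osmostress genes. Other genes named (HXT6, HXT3, HXT2, RRP40, NOC2, KRI1, PRM7, OYE3, YJR096W, GLG1, GAC1, SGA1, SPO12, SWI5, DSE1, HXT5, HXT7, RSB1, PNS1, YNL194C and those of opposite sign) were picked after their values were seen. RefSeq served for symbols and neighbours only, and matched 5804 of the 6278 names. Promoter, protein and motif descriptions were not made.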

Additional observations from a re-analysis of the deposited data

Results flagged for a closer look

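The response differed between HOG1-CCAAX and HOG1-GFP, by the test of the difference itself, for 146 genes. For 15 of them the response had opposite signs in the strains in all 3 replicates. Up in HOG1-CCAAX and down in HOG1-GFP were 8, with mean responses of 1.12 and −1.14 for HXT4, 1.23 and −0.16 for the polyamine exporter gene TPO1, and 0.58 and −0.78 for the cell wall gene TIR1. The others of the 8 were MMR1, ICY1, the fatty acid desaturase gene OLE1, the amino acid permease gene DIP5 and the eisosome gene SUR7. The reverse held for 7, with mean responses of −1.28 and 0.45 for FSH1, −0.55 and 1.16 for PUF3, and −0.09 and 1.66 for RIB4, and for YNL108C, RRM3, ATR1 and RRP40. Opposite signs need not mean a called change in each strain, which of the 15 only HXT4 and TIR1 showed.

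The probe of the marker kanMX4, which enters no comparison between genes, was lower in HOG1-CCAAX than in HOG1-GFP at 0 min, with a difference of 6.15 on the log2 scale (HOG1-GFP minus HOG1-CCAAX, mean of replicates 2 and 3). Its part in the other differences was not tested.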

How the results depend on the processing

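Over the 5462 genes, the count of called differences was 146. It was 141 after median centring, 132 after quantile normalization, 156 with robust eBayes, 110 from the array values and 184 with 3 strains and the replicate block. A fit open to all probes kept the same 5462 genes, so its count of 146 repeats the main fit and checks nothing. The count was 171 for genes with at least 2 differences, 89 with a minimum absolute difference of 1 and 50 without technical array 1 of replicate 1. With 3 strains and no replicate block it was 18. The use of array values was chosen after seeing the data. Leaving out 1 replicate gave 4 to 411 for the difference, 1242 to 4159 for the response of HOG1-GFP, 1064 to 3760 for that of HOG1-CCAAX and 958 to 3965 for that of hog1del. It gave 0 to 35 for levels at 0 min, 140 to 1167 for levels at 60 min (238 after quantile normalization), 28 to 330 for HOG1-CCAAX minus hog1del and 91 to 1767 for HOG1-GFP minus hog1del, which was 610. These leave-out fits rest on 2 values per gene.

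Of 69 genes followed, 59 passed, all 59 kept their sign under every alternative, and 4 (STL1, HXT1, THI4 and YBR116C) passed under every one. The sign of the 59 could not turn when 1 replicate or the pairing was left out, because it was the same in all replicates. Of genes that did not pass, 3 changed sign. Leaving out 1 replicate moved HOG1 between −0.38 and 0.065 (main value −0.18), HXT5 between −0.25 and 0.51 (main value 0.09) and CTT1 between −0.15 and 0.59 (main value 0.11), and quantile normalization put CTT1 at −0.032. The cause was not tested.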
